A study of Mus musculus with 8 samples.

Results

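The nuclear genes of complex III, cytochrome c, complex IV and ATP synthase were followed in heart RNA of db/m and db/db mice. Members were the protein-coding genes whose symbol begins with Uqc, Cox4, Cox5, Cox6, Cox7, Cox8 or Atp5, together with Cyc1 and Cycs, which gave 50 of the 55573 genes in the deposited count table. By role they comprised 9 subunits of complex III, 1 cytochrome c gene, 18 genes of complex IV, 18 gene models of ATP synthase, 3 assembly factors of complex III (Uqcc1, Uqcc2 and Uqcc3) and 1 gene associated with ATP synthase (Atp5s). Usmg5 entered under the symbol Atp5md that RefSeq gives it. RNA sequencing covered 8 libraries of heart RNA from male C57BLKS/J mice aged 24 weeks, 4 of genotype db/m and 4 of genotype db/db, each prepared from 3 µg of total RNA. The db allele disrupts the leptin receptor. The homozygous db/db mouse becomes obese and diabetic, and the heterozygous db/m mouse, which carries 1 copy of the allele, is its lean control. No treatment is named for either group. Nothing in the labels ties a library to an animal of its own, and p-values therefore speak of the scatter among these libraries, part of which may be technical.

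Complex III takes electrons from ubiquinol and passes them to cytochrome c, a small soluble carrier, and complex IV hands them to oxygen. Both pump protons across the inner mitochondrial membrane, and ATP synthase lets the protons back through its ring of c subunits to turn the F1 head that makes ATP. Heart muscle is dense in mitochondria and uses muscle-type isoforms of some complex IV subunits (Cox6a2, Cox7a1 and Cox8b) beside the widely expressed forms (Cox6a1, Cox7a2 and Cox8a). The catalytic core subunits of complex IV, cytochrome b of complex III and the a subunit of ATP synthase are encoded by mitochondrial DNA and are not members.

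Many of these genes have processed pseudogenes, intron-less copies of the mRNA inserted elsewhere in the genome, and for a good part of the members the counts lay mostly in the copies. A copy was matched when at least 0.5 of its length aligned to the member at an identity of at least 95%. Over the 8 libraries the members themselves held 2116844 counts and their copies 1326202, so 61.5% of the combined counts lay in the coding genes. Matched copies existed for 16 members, held more counts than the coding gene in 14 of them and over 10 times as many in 11. The handling of reads with several possible places is not given in the sources used here, and a read that lies wholly in a stretch where gene and copy are identical cannot be assigned by its letters, so the values of these 16 members are uncertain. The share of combined counts in the coding genes averaged 62.4% ± 3.63 over the db/m libraries and 61.6% ± 1.31 over the db/db libraries (SD, n = 4 each), a difference smaller than the spread within db/m. Both that spread and the higher db/m mean came from db/m replicate 3, at 67.8%. The other db/m libraries lay at 60.2% to 61.2%, against 60.5% to 63.3% in db/db.

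Some gene and copy pairs are printed because they show how little sequence separates a member from the place where its counts were recorded. Each line is a coding sequence with its stop codon, given from the start codon for Uqcr11 and Cox7c and from base 211 to base 411 for Atp5g1, and capitals mark the bases at which gene and copy differ. Atp5g1 encodes a c-ring subunit of ATP synthase (chromosome 11, 96068852 to 96075670, GRCm38, the assembly also called mm10). Its copy Gm10039 (chromosome 11, 100361716 to 100362126) differs by G385A, with positions counted from 1 at the first base of the start codon and the gene's base first. Atp5g1 held 9889 counts and Gm10039 held 189296.
Atp5g1: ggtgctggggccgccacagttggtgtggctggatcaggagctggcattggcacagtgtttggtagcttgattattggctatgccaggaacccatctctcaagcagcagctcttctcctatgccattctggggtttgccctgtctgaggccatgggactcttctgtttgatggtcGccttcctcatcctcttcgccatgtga
Gm10039: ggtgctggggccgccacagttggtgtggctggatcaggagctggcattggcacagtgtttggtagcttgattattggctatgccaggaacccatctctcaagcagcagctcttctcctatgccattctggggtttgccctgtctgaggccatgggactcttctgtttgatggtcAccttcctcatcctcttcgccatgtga
Uqcr11 encodes a small subunit of complex III (chromosome 10, 80402997 to 80406830), and its copy Gm16418 (chromosome 1, 166431705 to 166431875) differs by C87T and G116A. Uqcr11 held 1183 counts and Gm16418 held 33037.
Uqcr11: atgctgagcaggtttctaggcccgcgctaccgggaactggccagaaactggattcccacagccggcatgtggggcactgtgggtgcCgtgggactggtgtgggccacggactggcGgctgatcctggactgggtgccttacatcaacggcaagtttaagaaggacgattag
Gm16418: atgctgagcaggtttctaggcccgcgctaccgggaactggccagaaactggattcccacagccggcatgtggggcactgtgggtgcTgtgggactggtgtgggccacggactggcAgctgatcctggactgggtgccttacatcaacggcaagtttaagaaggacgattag
Cox7c encodes a small subunit of complex IV (chromosome 13, 86044816 to 86046904), and its copy Gm12338 (chromosome 11, 75599763 to 75599954) is the same over all 192 bases. Cox7c held 1547 counts and Gm12338 held 58867.
Cox7c: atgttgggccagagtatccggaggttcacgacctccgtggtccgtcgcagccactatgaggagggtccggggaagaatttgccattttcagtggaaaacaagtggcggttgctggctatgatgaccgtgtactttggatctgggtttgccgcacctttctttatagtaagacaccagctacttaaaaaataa
Gm12338: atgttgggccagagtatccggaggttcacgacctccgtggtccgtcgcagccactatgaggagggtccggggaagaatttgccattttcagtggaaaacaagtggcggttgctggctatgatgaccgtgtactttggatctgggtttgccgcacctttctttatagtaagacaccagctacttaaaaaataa
Across the stretches printed, a read that lies inside the coding sequence of the mRNA and spans none of the capitals has the same letters in the copy.

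The 8 libraries held 19541757 to 22249911 counts, of which the members took between 0.569% in db/m replicate 3 and 1.47%, or 0.840% to 2.43% with the copies. Ventricular muscle markers summed to at least 27510 CPM in every library (CPM, read counts set against the library size after TMM scaling), which fits the labelled tissue. Db/m replicate 3 had the lowest sum, but its markers did not all move one way. Myh6, the alpha myosin heavy chain, was highest in it, at 20480 CPM against 13790 to 17320 in the other libraries. Ryr2 was also highest in it, at 1458 CPM against 846.9 to 1344. The other markers of the list were lowest in it. Among them were Myl2 at 116.9 CPM against 593.5 to 998.7, Myl3 at 758.3 against 2334 to 4097 and Tnni3 at 417.3 against 1127 to 1396. All 6 atrial markers were highest in db/m replicates 1 and 3, with sums of 1632 and 3887 CPM against 16 to 118.2 in the other 6 libraries. Among the 9 adipocyte markers 8 showed the same order, with sums of 687.7 and 1095 CPM against 336.3 to 644.4. Fibroblast markers summed to 1611 and 1426 CPM in the same libraries against 855.5 to 1282 elsewhere, with 2 of 4 markers highest there. In the smooth muscle and pericyte list the sums did not stand apart, but 2 of 4 markers were highest in these libraries (Acta2 at 153.8 and 285.7 CPM, Myh11 at 81.74 and 381.0), as was 1 of 4 endothelial markers and none in the macrophage, skeletal muscle and erythroid lists. Acta2 was also higher in db/m replicates 2 and 4, at 132.9 and 107.5 CPM, than in every db/db library, at 35.11 to 64.99. Its log2 fold change was -1.6 (SE 0.31; edgeR adjusted p = 0.136), or -1.22 without db/m replicate 3. Db/m replicates 1 and 3 belong to the control group, and the part of these marker differences, ventricular ones included, in the members' results was not tested. In bulk tissue, fewer cells of a type and less RNA per cell cannot be told apart.

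No member passed the test between genotypes, although nearly all had higher mean levels in db/db. The filter on low counts kept 47 of the 50 members. Cox7b2, Cox8c and a second gene model of Atp5o (ENSMUSG00000116933, with 0 counts) did not pass it. By edgeR's quasi-likelihood test with Benjamini-Hochberg adjustment over all 17411 tested genes, 0 of 47 members were called at an adjusted p under 0.05, against 0.00574% of all genes, or 1 gene. DESeq2 also called 0 members, against 2.17% of all genes, and limma-voom called 0 against 0.747%. An unadjusted p under 0.05 was reached by 2 members in edgeR, Cox6b2 and Atp5c1, against 13.0% of all genes, by 4 members in DESeq2, against 14.6% of all genes, and by 6 in limma-voom, against 14.2%. The fitted log2 fold change was positive for 45 of 47 members, with a median of 0.47, against 47.7% positive and a median of -0.02 over all genes tested.

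**Figure D1:**
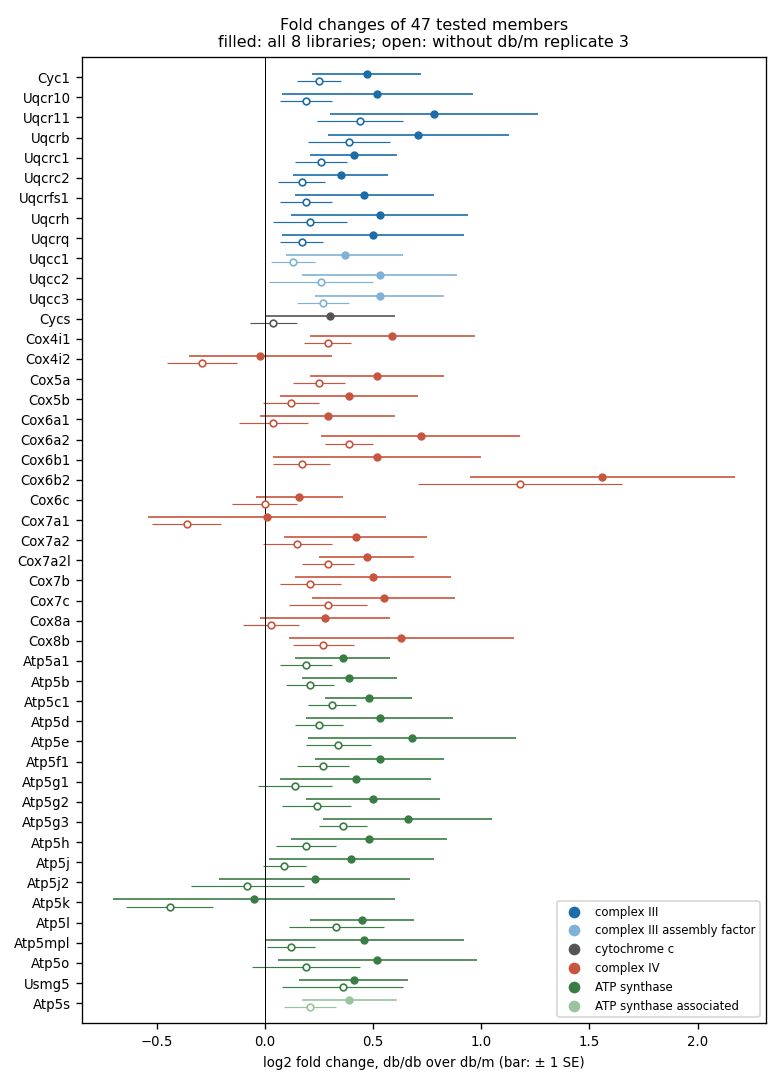
Log2 fold change of db/db over db/m (horizontal axis, bars ± 1 SE) for the 47 tested members, coloured by complex; filled points use all 8 libraries and open points leave out db/m replicate 3. With all libraries 45 of 47 filled points lie above 0 around a median of 0.47, and the open points centre on 0.21 with shorter bars.

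One control library set much of this picture. Db/m replicate 3 had the lowest level of all 8 libraries in 46 of 47 members, where it was lowest for 32.1% of all genes tested, and the exception was Usmg5. Only 0.714% of the combined counts of Usmg5 lay in the gene. With its copies Usmg5 too was lowest in that library, at 50.87 CPM against 299.3 to 436.0 in the others. The mean over members of log2 CPM was 3.90 in that library, 5.58, 5.83 and 5.76 in db/m replicates 1, 2 and 4, and 5.88, 6.02, 5.93 and 5.83 in db/db replicates 1 to 4. Without that library the median log2 fold change was 0.21, 43 of 47 members were positive (49.4% of all genes), 12 members had an unadjusted p under 0.05 (13.2% of all genes) and 0 were called (0.600% of all genes). Leaving out db/m replicate 1 as well brought the median to 0.14, with 40 of 47 positive. Most members thus kept a positive value against the remaining control libraries, at a smaller size.

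**Figure D2:**
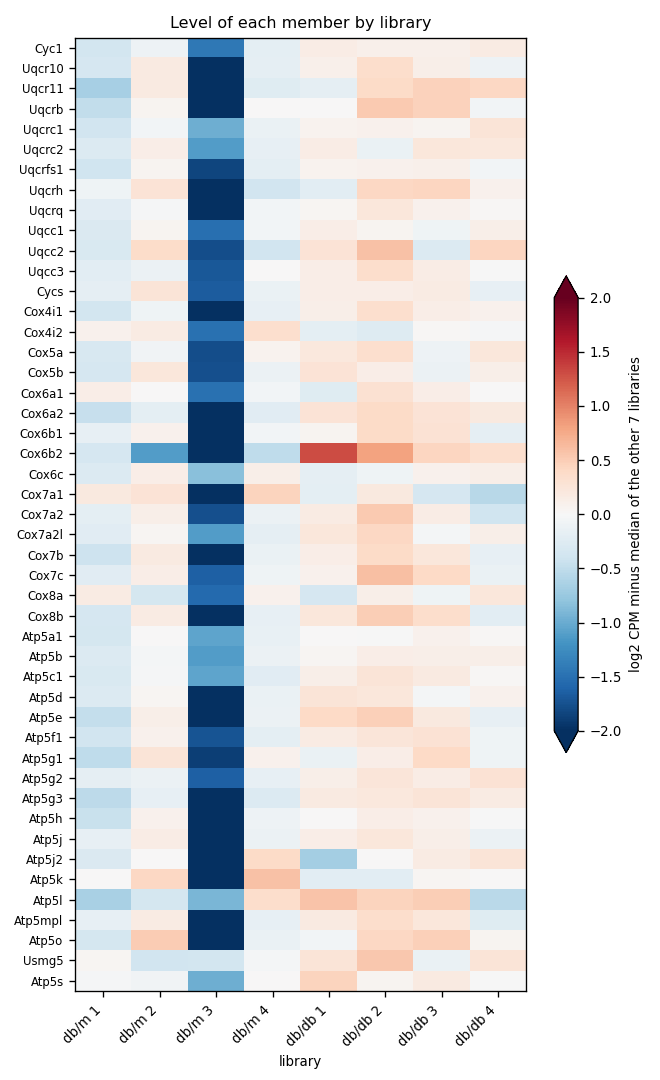
Level of each tested member (rows) in each library (columns) as log2 CPM minus the median of the other 7 libraries, with colours clipped at -2 and 2. The column of db/m replicate 3 is blue throughout, with a median over members of -1.78, while the medians of the other 7 columns lie between -0.29 and 0.24.

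In 10 of 47 members all 4 db/db libraries lay above all 4 db/m libraries, against 5.04% of all genes, and in 0 members did they all lie below, against 4.61%. The 10 were Cyc1, Uqcrc1 and Uqcrq of complex III, Cox4i1, Cox6a2 and Cox6b2 of complex IV, and Atp5b, Atp5c1, Atp5g2 and Atp5g3 of ATP synthase. With copies counted, Atp5c1 and Atp5g2 overlapped between groups. The other 8 had no matched copies, so counting copies could not change their values. Db/m replicate 3 was the lowest library in all 10, so leaving it out could not join these groups, and the count of 10 without it, against 6.67% of all genes, says nothing about stability. Without it Cox4i2 lay lower in every db/db library, against 6.56% of all genes. These counts are descriptions of 47 genes chosen together, and none of the 10 passed the adjusted threshold.

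All 9 subunits of complex III had positive fold changes, from 0.35 for Uqcrc2 to 0.78 for Uqcr11, with a median of 0.50 on the log2 scale that was 0.21 without db/m replicate 3. Cyc1, the cytochrome c1 that carries a haem (chromosome 15, 76343523 to 76346260), had 496.2, 595.4, 235.9 and 558.1 CPM in db/m replicates 1 to 4 and 660.0, 639.6, 637.2 and 668.5 CPM in db/db. The lowest db/db library thus stood above the highest control, and the fold was 1.38 (log2 0.47, SE 0.25; edgeR adjusted p = 0.438), with a log2 value of 0.25 without db/m replicate 3. Uqcrc1, a large core subunit facing the matrix (chromosome 9, 108936633 to 108949623), had 424.1, 538.7, 282.8 and 508.8 CPM in db/m and 564.0, 571.8, 556.1 and 646.1 CPM in db/db. Groups were again separate, at log2 0.41 (SE 0.20; edgeR adjusted p = 0.402) with all libraries and 0.26 without db/m replicate 3.

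Uqcrq, a small subunit and the gene of complex III with the highest level per length when copies from 95% identity are counted or left out, had 313.9, 363.0, 63.61 and 355.9 CPM in db/m and 372.5, 424.4, 382.9 and 369.1 CPM in db/db. Db/m replicates 1, 2 and 4 ended just under the lowest db/db library, and its log2 fold change of 0.50 (SE 0.42; edgeR adjusted p = 0.587) was 0.17 without db/m replicate 3. Uqcr11, whose coding sequence is printed above, had the largest fold change of the complex at 0.78 (SE 0.48; edgeR adjusted p = 0.479) from low levels of 5.10, 8.20, 0.951 and 6.89 CPM in db/m and 7.22, 9.48, 9.95 and 9.61 CPM in db/db. Only 3.16% of the combined counts of Uqcr11 and its copies lay in the gene, and with the copies added the fold change was 0.51, while the gene alone gave 0.44 without db/m replicate 3. With both changes at once it was 0.15. Uqcrb, a small subunit that supports the quinone site, had 4.57% of its combined counts in the gene and a fold change of 0.71 that became 0.42 with its copies and 0.39 in the gene without db/m replicate 3. Counted with its copies and without that library, Uqcrb was at 0.15. Uqcrfs1, the Rieske iron-sulfur subunit, and Uqcrc2, the second core subunit, had no copies and fold changes of 0.46 and 0.35, or 0.19 and 0.17 without that library.

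The single cytochrome c gene expressed in somatic tissue, Cycs (chromosome 6, 50562563 to 50566538), showed the least difference of the groups described here. Its level was 248.3, 303.2, 88.63 and 255.4 CPM in db/m and 282.1, 280.6, 285.7 and 251.9 CPM in db/db. Groups overlapped, the log2 fold change was 0.30 (SE 0.30; edgeR adjusted p = 0.651) and it was 0.04 without db/m replicate 3.

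Complex IV held the largest fold change of all members and the value nearest to 0. Of its 16 tested genes 15 were positive, with a median of 0.49 that was 0.19 without db/m replicate 3. Cox4i1, the common form of the subunit that regulates the enzyme through ATP and the highest of the complex per length when copies are left out (chromosome 8, 120668222 to 120674207), had 552.6, 670.2, 145.5 and 639.6 CPM in db/m and 724.9, 842.3, 737.1 and 712.5 CPM in db/db. All db/db libraries stood above the controls (log2 0.59, SE 0.38; edgeR adjusted p = 0.492; 0.29 without db/m replicate 3). Cox6a2, the heart-type form of a subunit at the dimer contact (chromosome 7, 128205435 to 128206387), had 470.6, 564.0, 80.69 and 550.3 CPM in db/m and 683.6, 739.4, 682.0 and 647.3 CPM in db/db. It differed by log2 0.72 (SE 0.46; edgeR adjusted p = 0.487) with all libraries, and by 0.39 (SE 0.11; edgeR adjusted p = 0.154, the smallest of any member there) without db/m replicate 3.

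Cox6b2, the form of subunit 6b best known from testis (chromosome 7, 4751792 to 4753094), had the largest fold change of all members, 2.94-fold or log2 1.56 (SE 0.61), with an edgeR adjusted p of 0.346. Its levels were very low, at 0.660, 0.344, 0.0414 and 0.570 CPM in db/m and 1.78, 1.22, 0.921 and 0.854 CPM in db/db. The groups were separate, but the gene held 130 counts over the 8 libraries and made up 0.812% of the Cox6b levels per length in db/m and 1.81% in db/db, the rest being Cox6b1. Cox7a2l, a factor that joins complexes III and IV into supercomplexes, had 178.1, 207.6, 95.58 and 183.6 CPM in db/m and 234.4, 268.5, 201.7 and 218.7 CPM in db/db. Db/db replicate 3 fell below db/m replicate 2, so the groups overlapped (log2 0.47, SE 0.22; edgeR adjusted p = 0.396; 0.29 without db/m replicate 3).

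The heart-type Cox7a1 (chromosome 7, 30184144 to 30186078) had a fold change near 0. It read 12.27, 12.91, 1.117 and 14.58 CPM in db/m and 10.66, 12.29, 9.765 and 8.378 CPM in db/db, with a log2 fold change of 0.01 (SE 0.55; edgeR adjusted p = 0.995) that was -0.36 (SE 0.16; edgeR adjusted p = 0.371) without db/m replicate 3. Its partner Cox7a2 had 27.57, 31.57, 9.265 and 29.02 CPM in db/m and 32.36, 41.58, 32.24 and 23.91 CPM in db/db, at log2 0.42, or 0.15 without db/m replicate 3. Cox4i2, the form known from lung and oxygen sensing, was the complex IV gene with a negative value (log2 -0.02, SE 0.33; edgeR adjusted p = 0.984), with 8.178, 8.592, 2.730 and 9.785 CPM in db/m and 6.838, 6.523, 7.830 and 7.684 CPM in db/db. Apart from the low value of db/m replicate 3, every control library of Cox4i2 lay above every db/db library. Cox6c, a small subunit, kept 1.65% of its combined counts in the gene, with a log2 fold change of 0.16 there and 0.47 with its copies, and with them it had the highest level per length of complex IV (1344 CPM per kb against 843.1 for Cox4i1). Without db/m replicate 3 the gene was at 0.00, or 0.13 with its copies, and the gene was at -0.11 without db/m replicates 1 and 3.

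ATP synthase genes were positive in 16 of 17 tested, with a median of 0.46 that was 0.21 without db/m replicate 3. Atp5b, the catalytic beta subunit of the F1 head (chromosome 10, 128083273 to 128090391), had 2295, 2697, 1277 and 2556 CPM in db/m and 2775, 2957, 2918 and 2941 CPM in db/db. Every db/db library exceeded the controls (log2 0.39, SE 0.22; edgeR adjusted p = 0.451; 0.21 without db/m replicate 3). Its partner in the head, the alpha subunit gene Atp5a1, overlapped between groups at log2 0.36 (SE 0.22), or 0.19 without that library. Atp5c1, the gamma shaft that turns inside the head (chromosome 2, 10056016 to 10080510), had 98.40, 119.7, 59.06 and 104.8 CPM in db/m and 130.0, 143.8, 135.8 and 122.3 CPM in db/db. The groups were separate in the gene's own counts, and the p was the smallest of the complex (log2 0.48, SE 0.20; edgeR adjusted p = 0.358; 0.31 without db/m replicate 3). Only 12.4% of its combined counts were in the gene. With copies the groups overlapped, since db/m replicate 2 at 1035 CPM stood above db/db replicate 4 at 1012, and the fold change was 0.43. That value was 0.24 without db/m replicate 3.

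Atp5e, the epsilon subunit at the foot of the shaft, had the largest fold change of ATP synthase (log2 0.68, SE 0.48; edgeR adjusted p = 0.524), which was 0.34 without db/m replicate 3. It read 52.50, 72.81, 8.975 and 66.83 CPM in db/m and 88.36, 92.68, 76.46 and 64.83 CPM in db/db, where db/db replicate 4 fell among the controls. Atp5l, the g subunit of the membrane part, had 6.683, 8.248, 5.584 and 10.54 CPM in db/m and 12.33, 11.26, 11.61 and 7.204 CPM in db/db (log2 0.45, SE 0.24; edgeR adjusted p = 0.439). Its 9 copies held 75091 counts against 1533 in the gene. The negative value belonged to Atp5k, the e subunit, at log2 -0.05 (SE 0.65), and it became 0.36 with the copy counts added and was -0.44 in the gene alone without db/m replicate 3. With the copy counts added and that library left out it was -0.01.

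The peripheral stalk, which holds the head still against the turning ring, contained both ends of the range of shares. Atp5j, coupling factor 6, kept 89.97% of its combined counts and had 239.2, 276.4, 58.03 and 249.8 CPM in db/m and 274.9, 292.8, 268.9 and 249.3 CPM in db/db (log2 0.40, SE 0.38; edgeR adjusted p = 0.626; 0.09 without db/m replicate 3). Atp5o, the OSCP subunit at the top of the stalk, kept 0.465% of its combined counts: 782 counts in the gene (chromosome 16, 91925214 to 91931687) against 167541 in Gm5436 (chromosome 12, 84258331 to 84258973; identity 97.0%). The gene read 3.737, 6.579, 0.869 and 4.370 CPM in db/m and 4.631, 6.241, 6.495 and 4.803 CPM in db/db, with overlapping groups (log2 0.52, SE 0.46; edgeR adjusted p = 0.609; 0.19 without db/m replicate 3). The second gene model of Atp5o overlaps it, at 91684398 to 91926982 on the same strand, so reads there can be shared between models. Atp5f1 and Atp5h, the b and d subunits of the stalk, kept 18.4% and 2.29% of their combined counts, and the fold changes of 0.53 and 0.48 in the genes were 0.34 and 0.49 with copies, and 0.27 and 0.19 in the genes without db/m replicate 3. With copies and without that library they were 0.12 and 0.20.

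The 3 assembly factors of complex III and Atp5s, also called factor B, were all positive, from 0.37 for Uqcc1 to 0.53 for Uqcc2 and Uqcc3, with overlapping groups. Adding copy counts to all members left the median log2 fold change at 0.47 (0.18 without db/m replicate 3), and 46 of 47 members were then positive with all libraries.

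Isoform pairs were compared as ratios of counts within a library, in which depth cancels. The 5 values were tested with an exact permutation test, two-sided, over the 8 libraries, where 0.0286 is the smallest p that 4 against 4 can give, and adjusted by Benjamini-Hochberg over the 5. No value passed 0.05 after adjustment with all libraries. Cox6a2 had 33.6, 44.3, 18.0 and 44.8 counts per count of Cox6a1 in db/m and 63.96, 46.97, 48.47 and 50.87 in db/db. Every db/db ratio exceeded the controls, a difference of 0.66 on the log2 scale (exact p = 0.0286, adjusted 0.0714), which was 0.36 without db/m replicate 3 (exact p = 0.0286, adjusted 0.0476) and 0.23 without db/m replicates 1 and 3 (exact p = 0.200). By level per length Cox6a2 made up 96.3% ± 1.70 of the pair over the db/m libraries and 97.8% ± 0.290 over the db/db libraries (SD, n = 4 each). A copy of Cox6a1 at under 95% identity held 15609 counts against 2019 in the gene, and with it added the log2 difference was 0.89. The shares above leave it out. With it Cox6a1 averaged 183.8 CPM per kb over the 8 libraries instead of 21.1, against 812.1 for Cox6a2.

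Cox4i2 had 0.0148, 0.0129, 0.0189 and 0.0153 counts per count of Cox4i1 in db/m and 0.00947, 0.00777, 0.0107 and 0.0108 in db/db. All db/db ratios were lower, by 0.68 on the log2 scale (exact p = 0.0286, adjusted 0.0714), and here db/m replicate 3 was the highest control instead of the lowest. Without that library the difference was -0.58 (exact p = 0.0286, adjusted 0.0476), and without db/m replicates 1 and 3 it was -0.55 (exact p = 0.0667, the smallest that 2 against 4 can give). Per length, Cox4i2 was 1.56% ± 0.245 of the pair over the db/m libraries and 0.979% ± 0.141 over the db/db libraries (SD, n = 4 each). Neither Cox4 gene had a matched copy.

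Cox7a1 and Cox7a2 turned on 1 library. Their ratio was 0.445, 0.410, 0.122 and 0.503 in db/m and 0.330, 0.296, 0.303 and 0.351 in db/db, which gave a log2 difference of -0.03 (exact p = 1) with all libraries. Without db/m replicate 3 every db/db ratio lay below the controls, with a difference of -0.50 (exact p = 0.0286, adjusted 0.0476). Cox8b to Cox8a stood at 3.63, 6.10, 1.39 and 4.30 in db/m and 6.30, 5.98, 5.86 and 3.77 in db/db, and the difference of 0.66 did not hold up against the spread (exact p = 0.257, adjusted 0.321; 0.23 without db/m replicate 3). Cox8b itself, the heart-type form (chromosome 7, 140898945 to 140900446), read 154.7, 194.0, 19.03 and 173.9 CPM in db/m and 202.5, 245.0, 222.4 and 168.3 CPM in db/db. Cox8a read 42.56, 31.81, 13.69 and 40.47 CPM in db/m and 32.14, 40.97, 37.91 and 44.61 CPM in db/db, and Cox6a1 read 13.98, 12.72, 4.467 and 12.25 CPM in db/m and 10.66, 15.72, 14.05 and 12.70 CPM in db/db. The widely expressed forms Cox6a1 and Cox8a thus overlapped between groups, at 0.04 and 0.03 on the log2 scale without db/m replicate 3.

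**Figure D3:**
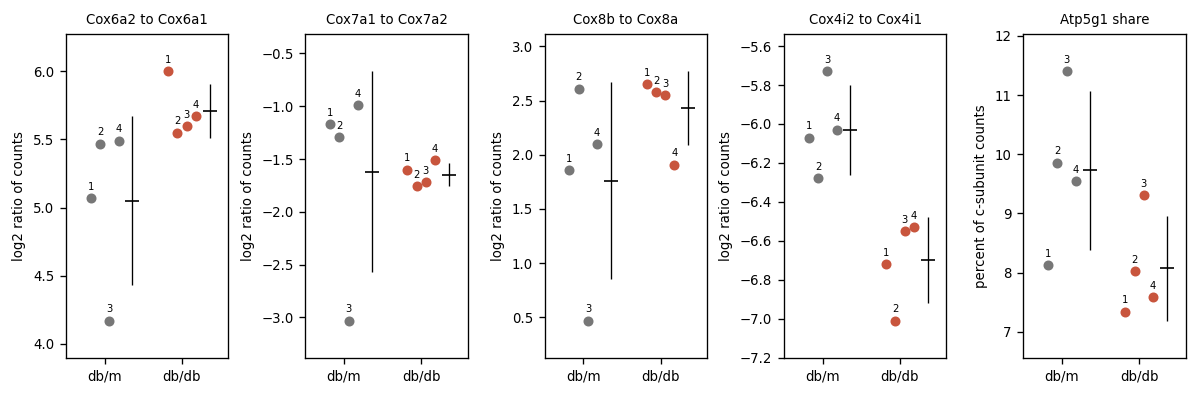
Isoform ratios by library (numbers are replicates; grey db/m, red db/db; black marks are mean ± SD, n = 4 each) as log2 ratios of counts for 4 pairs and as Atp5g1 in percent of the counts of Atp5g1, Atp5g2 and Atp5g3. The groups are separate for Cox6a2 to Cox6a1 and for Cox4i2 to Cox4i1, and db/m replicate 3 stands apart from its group for Cox7a1 to Cox7a2 at -3.03.

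The c-ring genes Atp5g1, Atp5g2 and Atp5g3 encode the same mature c subunit behind different import sequences. Atp5g3 had 517.6, 667.4, 135.0 and 619.0 CPM in db/m and 754.5, 772.2, 793.5 and 749.0 CPM in db/db, with separate groups (log2 0.66, SE 0.39; edgeR adjusted p = 0.459; 0.36 without db/m replicate 3). Atp5g2 was separate in its own counts, at 6.156, 6.431, 2.192 and 6.270 CPM in db/m and 7, 7.602, 7.140 and 7.898 CPM in db/db. Only 1.87% of its combined counts lay in the gene, and with copies it read 299.4, 363.9, 129.3 and 344.2 CPM in db/m and 420.0, 421.4, 358.4 and 378.5 CPM in db/db, where db/db replicate 3 fell below db/m replicate 2. Atp5g1 overlapped, at 46.34, 73.69, 17.66 and 65.93 CPM in db/m and 60.36, 68.04, 82.17 and 62.11 CPM in db/db. Its share of the counts of the 3 genes averaged 9.73% ± 1.34 over the db/m libraries and 8.07% ± 0.88 over the db/db libraries (SD, n = 4 each; exact p = 0.0571, adjusted 0.0952). With copies counted the order of the family changed: per length, Atp5g3 made up 87.5% of the genes' levels in db/m and Atp5g1 11.4%, whereas with copies Atp5g1 made up 60.3% ± 3.10 and Atp5g3 24.2% ± 1.04 (SD, n = 4).

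Levels per length also depended on the copies. By CPM per kb of transcript, the mean over 8 libraries ran from 5.07 for Atp5j2 to 1332 for Atp5b in ATP synthase (with copies Atp5g1 was highest, at 2020), with a median of 99.9 and an interquartile range spanning 26.1-fold. Adding the copies moved the median to 793.3 and narrowed the interquartile range to 3.07-fold, and in complex III that range went from 9.70-fold to 3.76-fold. For complex IV the range widened instead, from 6.23-fold to 21.5-fold, where copies were matched to Cox6c, Cox7a2l, Cox7b and Cox7c. Subunits of one complex are needed in fixed proportions as proteins, and mRNA levels need not follow them. Copies just under the identity limit add to this: Atp5j2, the f subunit, held 805 counts and its copies between 90% and 95% identity 86233, Cox5a held 9769 against 114501 and Uqcrh 3467 against 77670. With these included Uqcrh was the highest of complex III, at 893.1 CPM per kb against 816.4 for Uqcrq, and Cox5a at 1163 stood above Cox4i1.

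**Figure D4:**
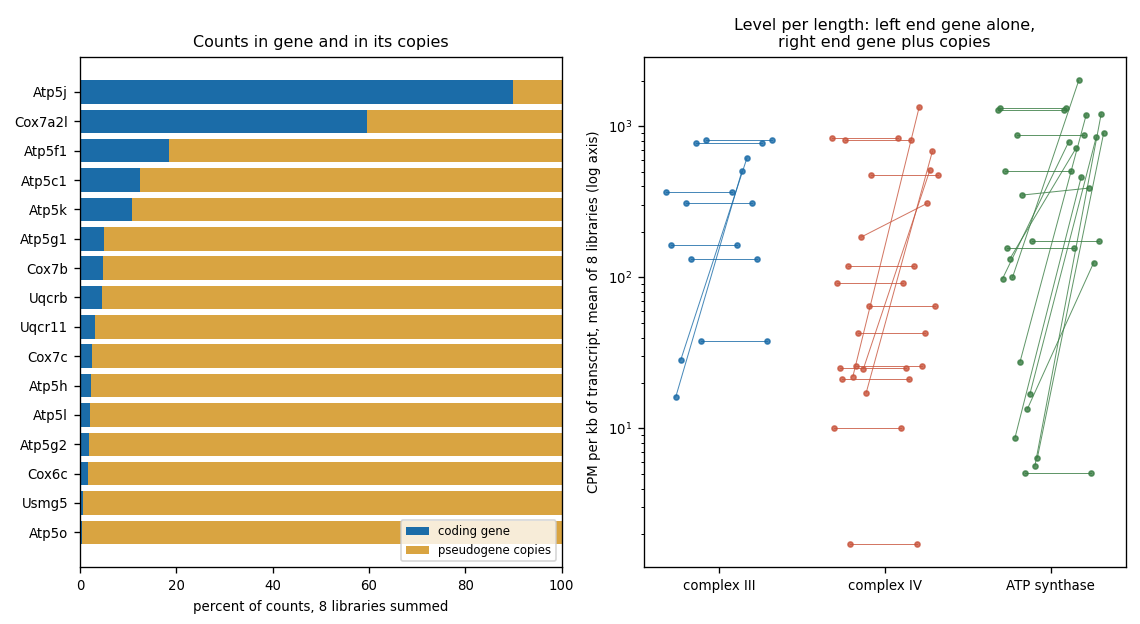
Left, percent of the counts summed over 8 libraries that lay in the coding gene (blue) and in its matched copies (yellow) for the 16 members with copies. Right, mean CPM per kb of transcript (log axis) of each tested subunit gene alone (left end of each line) and with its copies (right end), which for ATP synthase moves the median from 99.9 to 793.3.

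The depression of db/m replicate 3 was uneven among members. Its log2 deviation from the median of the other 7 libraries had a median of -1.78 over the 47 members and ran from -3.96 for Atp5k to -0.36 for Usmg5, where all genes tested had a median of 0.01 and a 5th percentile of -1.61. Both ends came from genes whose counts lay mostly in copies, with 10.7% of combined counts in Atp5k and 0.714% in Usmg5. Atp5k had 6 counts in this library. Short transcripts were lower: across members the deviation correlated with log2 transcript length at Pearson r = 0.53 and Spearman rho = 0.52 (n = 47 genes of 1 library, a description). Other coding genes shared the trend in part. Those under 500 bases had a median of -1.21 in this library and members of that length -2.93, and from 1500 to under 2500 bases the medians were -0.25 and -1.12. Cox7a1 reached 8.43% of the mean of the other db/m libraries, Cox8b 10.9% and Atp5k 3.71%, against 54.9% for Atp5c1 and 57.7% for Uqcrc1. Other members departed from the trend. The short Usmg5 (352 bases) and Atp5l (544 bases) stood at 84.7% and 65.8% in their own counts. The long Cycs (3123 bases) and Uqcc1 (2633 bases) stood at 33.0% and 37.9%. The same library had a weight of 0.124 in limma-voom, against 0.943 to 2.09 in the others. A relation to transcript length was not confined to it. In db/db replicate 2 short members were higher (Pearson r = -0.44, Spearman rho = -0.49), and in the remaining libraries r lay between -0.17 and 0.14. In another fit, each library's trend on the deposited gene length was removed first. The median log2 fold change of the members was then 0.42 with all libraries and 0.18 without db/m replicate 3. That length merges all exons of a gene and can far exceed the transcript length used above (6443 against 544 bases for Atp5l). The trend on transcript length itself was therefore not removed. Whether transcript length, the atrial and adipose RNA or both underlie the low values was not tested.

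**Figure D5:**
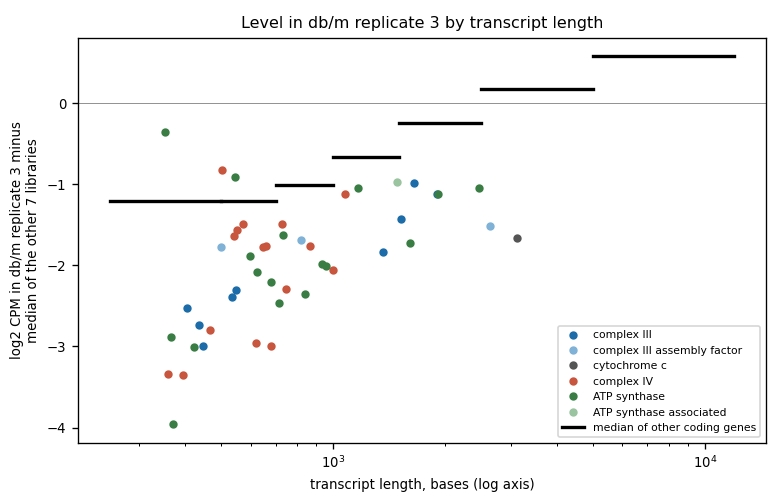
Log2 CPM in db/m replicate 3 minus the median of the other 7 libraries (vertical axis) against transcript length in bases (log axis) for 47 members, coloured by complex; black lines are medians of other coding genes in length bins. The members centre on -1.78 and most lie under the black line of their length.

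Promoters of the members were searched for motifs of factors known for nuclear genes of respiration, in windows from 250 bases before to 50 after the RefSeq start (GRCm38.p6), on both strands, without regard to overlap between motifs. The NRF1 and MEF2 patterns were set after a first search of these windows. A window was found for 37 members, and Cox6a2, Cox4i1, Cox4i2 and Cyc1 were among those without one. The palindromic NRF1 core CGCATGCG was in 21.6% of them (Atp5g2, Atp5j, Atp5k, Atp5l, Cox6a1, Cycs, Uqcr11 and Uqcrc1) and in 2.73% of 17455 other coding genes. With a G before and a C after it, the shares were 10.8% and 1.45%. The ERR site AAGGTCA was in 13.5% against 4.71%, the YY1 motif AAGATGGC in 10.8% against 3.55% and the ETS core CCGGAAG in 29.7% against 12.9%. The MEF2 consensus was in 0 of the 37 against 3.28%, and TATAAA in 10.8% against 14.8%. These shares describe letters in the windows and are not tests. A pair of upstream stretches are printed because each shows such a motif, in capitals, in a gene of the isoform comparisons: the reverse complement of the ERR site before Atp5g3 (chr2:73911327-73911576, minus strand), and the NRF1 core and the reverse complement of the ETS core before Cox6a1 (chr5:115348959-115349208, minus strand).
Atp5g3 promoter: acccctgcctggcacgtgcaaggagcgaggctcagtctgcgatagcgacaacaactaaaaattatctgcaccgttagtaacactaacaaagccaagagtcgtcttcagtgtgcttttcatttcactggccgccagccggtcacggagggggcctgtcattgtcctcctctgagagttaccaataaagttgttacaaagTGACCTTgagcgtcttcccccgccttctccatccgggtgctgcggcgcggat
Cox6a1 promoter: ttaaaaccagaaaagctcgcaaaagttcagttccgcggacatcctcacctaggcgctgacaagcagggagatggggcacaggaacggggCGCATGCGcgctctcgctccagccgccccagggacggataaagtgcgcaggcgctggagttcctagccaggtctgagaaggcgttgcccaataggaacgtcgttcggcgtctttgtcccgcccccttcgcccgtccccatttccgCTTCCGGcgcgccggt
Of these genes, Atp5g3 was separated between genotypes and Cox6a1 was not. The other members with the ERR site (Atp5e, Atp5k, Atp5l and Uqcc3) were not separated either. Among members with the NRF1 core, Atp5g2 and Uqcrc1 were separated, and among those with the ETS core none was. Whether a motif goes with a difference was not tested.

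Other genes of the pathway gave a similar picture, with 0 of 64 tested genes called by edgeR and 3 with an unadjusted p under 0.05, against 13.0% of all genes. Complex IV assembly factors were positive in 23 of 24, with a median of 0.21 that was 0.07 without db/m replicate 3. Cox19, a copper-related factor, had the smallest p of that list (41.77, 45.17, 28.21 and 44.46 CPM in db/m; 66.60, 61.28, 48.92 and 58.22 CPM in db/db; log2 0.56, SE 0.17; edgeR adjusted p = 0.291), and its groups were separate. Surf1, a haem insertion factor, was also separate at log2 0.53 (SE 0.20; edgeR adjusted p = 0.337), or 0.38 without db/m replicate 3. ATP synthase assembly and regulation genes were positive in 7 of 7 with a median of 0.37, led by Atpif1, the inhibitor of ATP hydrolysis, at log2 0.71, and by the assembly factor Fmc1 at 0.55. Without db/m replicate 3 that list was positive in 5 of 7 with a median of 0.16, Atpif1 at 0.41 and Fmc1 at 0.28. Subunits of complex II were positive in 4 of 4 (median 0.48, with Sdhb at 0.47 and Sdha at 0.34), and core subunits of complex I in 7 of 7 (median 0.39, with Ndufv1 at 0.44 and Ndufv2 at 0.40). Without db/m replicate 3 the medians of complexes II and I were 0.23 and 0.17.

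Assembly genes of complex III had a median of 0.16 over 3 genes (Bcs1l at 0.26, Ttc19 at 0.16), which was 0.04 without db/m replicate 3. A mixed list of 5 genes set beside cytochrome c (Hccs, Aifm1, Apaf1, Sod1 and Ndufa4) had a median of 0.15. It was led by Sod1, the cytosolic superoxide dismutase, at 0.58 (edgeR adjusted p = 0.355), and by Ndufa4 at 0.58. Without db/m replicate 3 that median was 0.01, with Sod1 at 0.40 and Ndufa4 at 0.28. Factors of mitochondrial transcription and its regulators, among them Lrpprc at 0.22 and Ppargc1b at -0.26, were positive in 8 of 14 with a median of 0.02, near the -0.02 of all genes. The 6 subunits of these complexes that mitochondrial DNA encodes (mt-Cytb, mt-Co1, mt-Co2, mt-Co3, mt-Atp6 and mt-Atp8) were listed with 0 counts in all 8 libraries, so nuclear and mitochondrial subunits could not be set side by side.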

How the data were processed

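Heart RNA was sequenced in 8 libraries, grouped by the genotype in their labels (4 db/m, 4 db/db). The authors deposited raw counts for each Ensembl gene without normalisation, per the file headers. The build was mm10, per the submitters' processing notes. For the aligner, the counter, the use of strand and the treatment of multi-mapping reads, the sources used here give nothing. Members, gene lists, tests and alternatives were chosen with earlier results of these data known. Symbols came from GENCODE M21 by Ensembl identifier (55480 of 55573 found, with 2510 counts in the rest). Pseudogene copies were matched with BLAST 2.17.0. Level per length used the shortest principal coding transcript.

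The test was edgeR 4.0.16 under R 4.3.3 (filterByExpr with a minimum count of 10 and a total of 15, TMM, robust quasi-likelihood F test on genotype, two-sided, Benjamini-Hochberg over 17411 genes, threshold 0.05). Fold changes put db/db over db/m on the log2 scale. Mean log2 CPM used a prior count of 2, and isoform ratios 0.5 counts. The fits were checked on simulated counts. Alternatives were DESeq2 1.42.0, limma-voom (limma 3.58.1) with sample weights, other scalings and filters, a replicate block and leaving out libraries. Further ones were copies added and the trend on deposited gene length removed. Both of the last without db/m replicate 3, and copies from 90% identity in the isoform ratios, were added after seeing the data. In each complex the genes given by library were the highest per length, the 2 with the smallest p and the largest change, then isoform pairs and the extremes of the share in copies; of each pathway list, the 2 with the smallest p. Further members were named as examples after their values were seen.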

Additional observations from a re-analysis of the deposited data

Results flagged for a closer look

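Several values of db/m replicate 3 lay far below the other libraries of its group, with a gap to the nearest, as a part of the group's range, above Dixon's critical value for 4 samples, which chance exceeds in about 1 in 20 groups. Uqcrq had 63.6 CPM there against 313.9 to 363.0 in the other db/m libraries, Atp5g2 had 2.19 against 6.16 to 6.43, and Atp5j had 58.0 against 239.2 to 276.4. The log2 ratio of Cox7a1 to Cox7a2 was -3.03 against -1.29 to -0.99. Mean log2 CPM was 3.90 over all tested members against 5.58 to 5.83, 3.13 over complex IV against 5.0 to 5.13, and 4.07 over ATP synthase against 5.68 to 6.0. In all, 6 of 47 tested members met the criterion in this way.

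Within db/db, replicate 4 stood apart in 2 values: Cycs at 251.9 CPM against 280.6 to 285.7 in the other db/db libraries, and the log2 ratio of Cox8b to Cox8a at 1.91 against 2.55 to 2.65. The causes were not tested.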

How the results depend on the processing

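The count of called members was 0 under the 18 alternatives that gave it, and the medians of all members and of the 3 complexes stayed positive throughout (all members 0.14 to 0.63). Leaving out each library in turn gave a median over members of 0.21 to 0.63, lowest without db/m replicate 3. Limma-voom with sample weights gave 0.24. The numbers of the replicates did not pair the libraries (correlations of same-numbered libraries -0.0882, 0.0561, 0.0268 and 0.0163); the replicate block gave a median of 0.59, 0 called members and Cox4i2 at 0.10, and exact tests of the isoform ratios within numbers cannot go below 0.125, which says nothing about stability.

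Some values changed sign. Cox7a1 (0.01) was -0.31 in limma-voom, -0.43 without db/m replicates 1 and 3, -0.06 with the length trend removed, and -0.36 to 0.24 over single libraries left out. Cox4i2 (-0.02) ranged from -0.29 to 0.17 in that way. Without db/m replicates 1 and 3 Cycs was -0.03 (0.30 with all libraries) and Atp5g1 -0.04 (0.42). Atp5j2 (0.23) was -0.08 without db/m replicate 3. Leaving out single libraries gave Cox7a1 to Cox7a2 differences of -0.50 to 0.18, Cox6a2 to Cox6a1 0.36 to 0.80 and Cox4i2 to Cox4i1 -0.76 to -0.57; the adjusted p of these 3 ratios was under 0.05 only without db/m replicate 3. Without that library all p adjust over the same 5 values, so 3 ratios at the smallest p suffice to pass. The share of combined counts in the coding genes was 55.4% with copies matched at 90% identity and 73.2% at 98%. Counting depth limits Cox6b2 most, at 130 counts in all.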
